A study of Zea mays with 12 samples.

Results

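The comparison concerns unpollinated maize (Zea mays) kernels of the inbred lines B73 and Mo17, which before pollination consist of the ovule and the ovary around it. It rests on 2 of the 12 libraries of the series, chosen by their labels: the kernel library of 0 days after pollination (DAP) of the cross with the B73 mother, and the kernel library of 0 DAP of the cross with the Mo17 mother. Both are labelled with the cross they were meant for (BxM for B73 as mother and Mo17 as father, MxB for the reverse), but at 0 DAP no pollen parent had contributed a genome. The other 10 libraries are kernels of 3 and 5 DAP and endosperm of 7, 10 and 15 DAP of the same 2 crosses. Of 108342 gene models counted, 41670 reached a summed count of 20 over the 2 libraries of 0 DAP and were compared. Each mother has 1 library, so folds and counts are given without p-values, and they describe these libraries. The extraction protocol speaks of replicate plant material, but the single column deposited per cross and age gives no spread between plants.

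Maize inbred lines differ from each other in which genes they carry and in the sequence around them, and B73 and Mo17 are a widely studied pair. In ovules and ovaries before fertilization the transcripts come from maternal sporophytic tissue and from the small female gametophyte. After fertilization the endosperm receives more genome copies from the mother than from the father, while the kernel wall remains maternal. The columns of the count tables name B73 as the reference. For a model that was lower with the Mo17 mother, less transcript and poorer mapping of Mo17 reads to B73 therefore cannot be told apart. In bulk tissue, fewer cells of a type and less RNA per cell cannot be told apart either.

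The libraries held 64697705 counts (B73 mother) and 66605127 counts (Mo17 mother), among totals of 35401314 to 70930121 over all 12 libraries. More than 3 counts were found for 42923 models with the B73 mother and for 44871 with the Mo17 mother. The MADS-box genes that mark carpels and ovules were abundant in both: zag1, an AGAMOUS-like gene of floral organ identity, had 16251 counts (B73) and 13829 counts (Mo17), and the ovule gene zag2 had 23762 and 26484. All 12 tested members of that list were under 4-fold apart, and their summed level was 2510 CPM (counts scaled to the size of the library) against 2426. Among pollen markers 5 of 9 were at 0 in both libraries. The 8 embryo markers summed to 42.0 CPM (B73) and 106 CPM (Mo17), most of it from the dehydrin gene dhn1. Of 4 tested, 1 was past 4-fold in each direction (25% each, against 10.1% and 11.0% of all models tested). The embryo regulators vp1 and lec1 were at 0 in both. The 15 endosperm markers summed to 37.8 CPM (B73) and 32.5 CPM (Mo17), so transcripts of these genes were present at a low level in kernels labelled as unpollinated. The part of these tissues in the results was not tested.

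Most models were close to equal with the 2 mothers. The log2 ratio of the B73 over the Mo17 mother (CPM with edgeR's TMM factors and 1 added count) had a median of -0.02, a 25th percentile of -0.58 and a 75th of 0.62, and 64.4% of models were within 2-fold. At least 4-fold higher with the B73 mother were 4200 models, 10.1% of those tested, and at least 4-fold higher with the Mo17 mother were 4594, or 11.0%. At 8-fold the counts were 2913 (6.99%) and 3505 (8.41%). At 2-fold the order of the directions was turned, with 7561 (18.1%) and 7294 (17.5%). Large folds were concentrated in models with few counts. Among the 8510 models with a summed count of 20 to 100, 20.1% were 4-fold higher with the B73 mother and 27.2% with the Mo17 mother. Among the 2891 models with at least 10000 counts, these shares were 1.90% and 0.657%. Among the 1971 models with a name and at least 200 counts in either library, they were 4.62% and 1.93%. The gene lists below hold named models, so the shares of all models tested are a broader comparison for them. The 4-fold higher models held 5.43% of all counts of the B73 library and 2.82% of those of the Mo17 library.

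**Figure D1:**
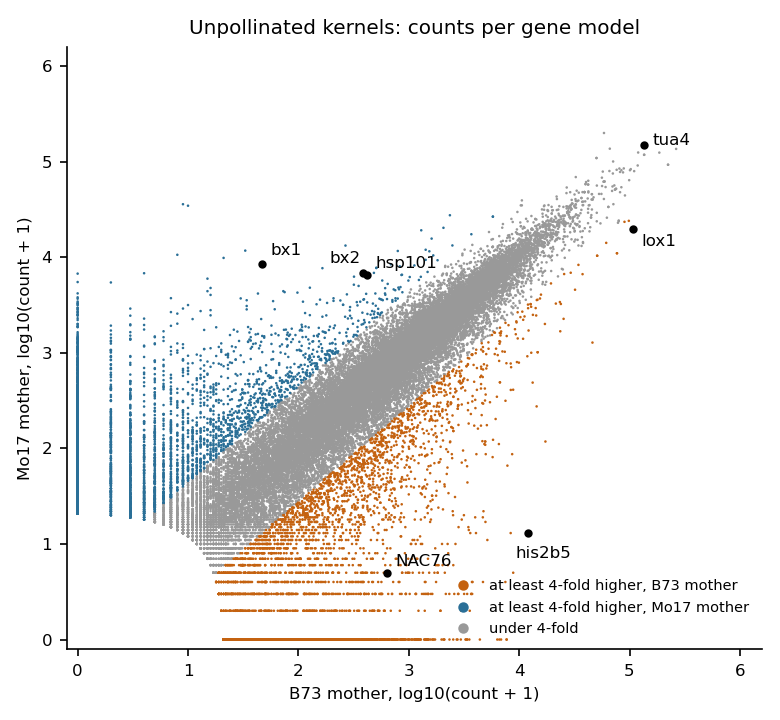
Counts of each of 41670 gene models in unpollinated kernels with the B73 mother (x axis) and the Mo17 mother (y axis), both as log10 of the count plus 1; each point is 1 model and the colours mark ratios of at least 4-fold. The points along the 2 axes are models with counts in 1 library and none or few in the other, and tua4 lies on the diagonal.

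The named genes among the 5 most abundant of either library, 6 in all, ranged from near equal to past 4-fold. The alpha-tubulin gene tua4 had 135572 counts with the B73 mother and 149447 with the Mo17 mother, a log2 ratio of 0.01 (95% counting interval -0.00 to 0.02). MUB3, a membrane-anchored ubiquitin-fold protein gene, had 88669 and 85024 counts. The cell wall glycoprotein gene HRGP had 264244 and 136081 counts (log2 ratio 1.11), and the glycine-rich protein gene grp1 had 223298 and 92929 (1.41). These were higher with the B73 mother, both past 2-fold and under 4-fold. The heat shock gene hsp70-4 was under 2-fold apart and the lipoxygenase gene lox1 past 4-fold, and their counts are given with their families. In the 20 tested housekeeping genes the median log2 ratio was 0.01 (-0.09 by library totals) and none passed 4-fold. The 16 cell cycle genes had a median of -0.03 and the 7 Polycomb and DNA methylation genes -0.03, again with none past 4-fold. Ribosomal protein genes (27, a list chosen after values were seen) had a median of 0.38, with 21 higher with the B73 mother (20 by library totals) and 0 past 4-fold.

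A sharper class comprised models with at least 100 counts with one mother and 3 or fewer with the other, called strain-only here. There were 789 B73-only models, of which 561 were at exactly 0 with the Mo17 mother, and 1049 Mo17-only models, of which 806 were at exactly 0 with the B73 mother. They made up 2.52% and 3.35% of the 31340 models with at least 100 counts in either library. Their counts added up to 0.672% of the B73 library and 0.670% of the Mo17 library, with medians of 275 and 217 counts and maxima of 7707 and 6803. The counts of the Mo17-only models are reads of the Mo17 library that mapped to the reference used, as for any counted model. Whether they came from the same gene in Mo17 was not tested. The library of the B73 mother held at most 3 counts of each, as the class is defined. In the gene table used for names, 12.8% of the B73-only models and 2.76% of the Mo17-only models had an entry, against 48.9% of the models with at least 100 counts in either library. Of 16314 models that could be placed in chromosome order, 99 were B73-only, and they formed 1 run of neighbours, of 3 models (GRMZM2G012977, GRMZM2G014055 and GRMZM2G145262). The 28 placed Mo17-only models formed 0 runs.

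The 10 models with the largest ratios and at least 1000 counts carried no name in either direction. With the B73 mother they had 3295 to 7707 counts, and all were at 0 with the Mo17 mother. GRMZM5G823318 led with 7707 counts against 0, at least 2846-fold higher when the limit of 3 counts is set for the Mo17 library. With the Mo17 mother GRMZM2G569903 had 6740 counts against 0, at least 2028-fold higher. GRMZM2G115985 had 35876 counts against 8 and GRMZM2G173644 had 34611 against 9. In both, the B73 library was above the limit of 3 counts but nearly lacked them.

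Named strain-only genes were few, 8 B73-only and 3 Mo17-only models. Among the B73-only ones were the zein genes fl2 (167 and 2 counts) and z1C1_7 (166 and 3). In MxB kernels of 3 DAP they had 144 and 190 counts. In endosperm of 15 DAP fl2 had 992970 and 503944 counts (BxM and MxB) and z1C1_7 767270 and 505988. Their counts at 0 DAP were thus a trace beside those of endosperm. The B73-only models GRMZM2G016254 and GRMZM2G084496, both named TPS20-Del, had identical counts in every library (152 and 0 at 0 DAP). LIM10, a LIM-domain protein gene, had 346 counts with the B73 mother and 0 with the Mo17 mother, at least 128-fold higher. OMT8, listed as an O-methyltransferase gene by its name, had 104 and 0 counts. MYBR115, a MYB-related factor gene, had 0 counts with the B73 mother and 405 with the Mo17 mother, at least 122-fold higher with the latter. A gene of the Mlo membrane protein family (Mlo6) had 2 and 591 counts, a log2 ratio of -7.50 (95% counting interval -11.11 to -6.20), and a laccase gene (Laccase-17) had 0 and 118.

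The same models were then followed in the later pairs of libraries, each pair scaled by its own factors. In kernels of 3 DAP the B73-only models kept a median log2 ratio of BxM over MxB of 6.87 (734 models with a summed count of 20), and 15.7% of all 789 had more than 3 counts in MxB. At 5 DAP the median was 6.28 and that share 38.7%. In endosperm of 7 DAP the median was 0.99, the median share of BxM in the scaled count was 66.8% (25th to 75th percentile 59.4% to 73%), and 86.9% of the models had more than 3 counts in MxB. Of 650 followed models, 591 were higher in BxM. At 10 and 15 DAP the medians were 1.36 and 1.02.

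Mo17-only models mirrored this. Their median log2 ratio was -6.81 in kernels of 3 DAP and -5.61 in kernels of 5 DAP. In endosperm it was -0.85, -1.23 and -0.99 at 7, 10 and 15 DAP. The share of them with more than 3 counts in BxM was 8.58% (3 DAP), 35.3% (5 DAP) and 89.0% (7 DAP). At 7 DAP the median BxM share was 35.5%, and 755 of 890 were higher in MxB. From 7 DAP the tissue was endosperm and no longer the whole kernel, so age and tissue changed together. Models within 2-fold at 0 DAP had medians between -0.08 and 0.02 at 0 to 10 DAP. The other 4-fold models, which were outside the strain-only class, had medians of 0.60 (higher with the B73 mother) and -0.59 (higher with the Mo17 mother) at 7 DAP. At 0 DAP more than 3 counts were also found with the Mo17 mother for 65.0% of the former, and with the B73 mother for 48.7% of the latter.

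**Figure D2:**
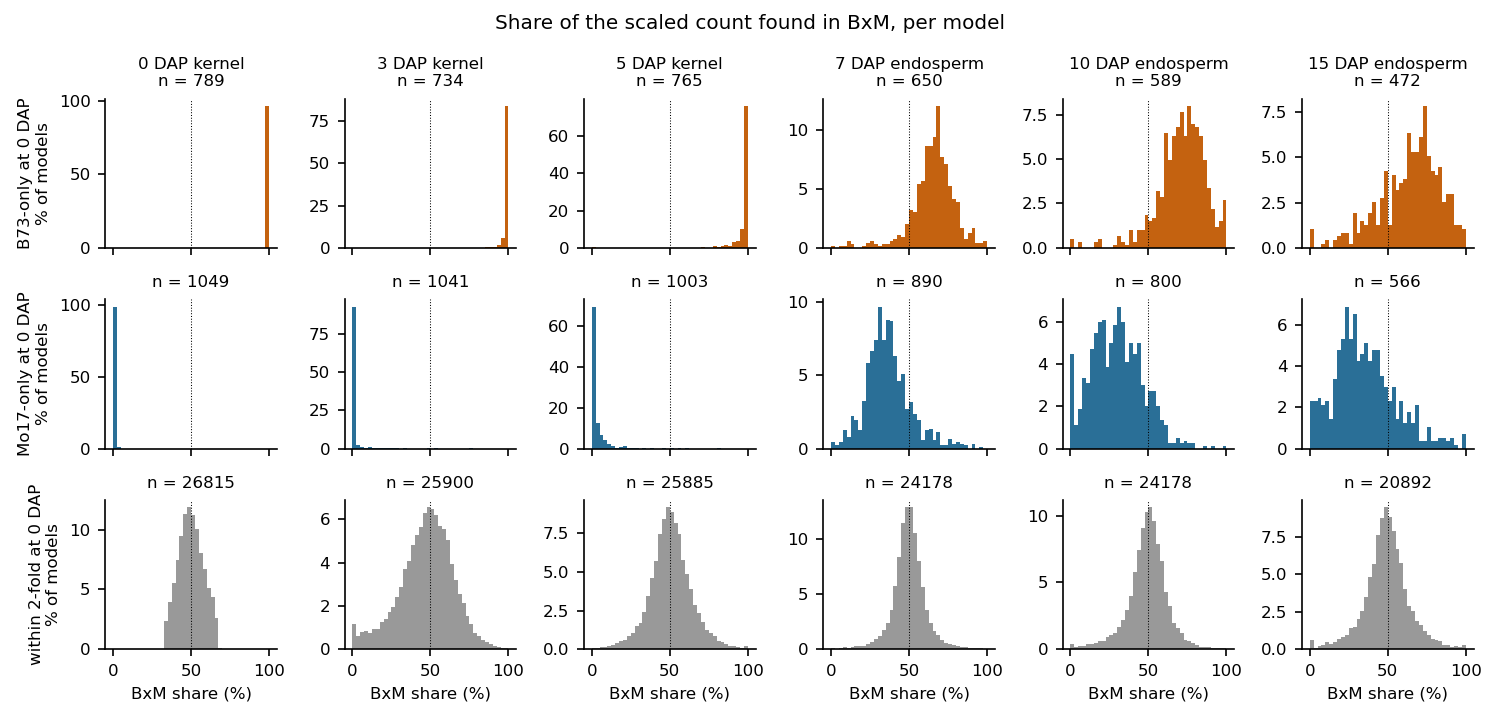
Histograms of the share of the scaled count found in BxM (x axis, percent; 50 marked by a dotted line) for models that were B73-only, Mo17-only or within 2-fold at 0 DAP, at 6 ages; the y axis gives the percent of followed models and n is their number. B73-only models sit near 100% in kernels and around 66.8% in endosperm of 7 DAP, Mo17-only models near 0% and around 35.5%, and models within 2-fold around 50%. Some models with a share of 100% are left out of the last bar though counted in n, so that bar is drawn too low. At 0 DAP the last B73-only bar holds 761 of 789 models.

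The 10 leading B73-only models show the course in counts. In MxB they had 0 to 17 counts at 3 DAP and 2 to 48 at 5 DAP, then 198 to 775 at 7 DAP beside 439 to 1354 in BxM. GRMZM5G823318 had 7399 and 6 counts (BxM and MxB) at 3 DAP, 5288 and 18 at 5 DAP, and 1354 and 775 at 7 DAP. GRMZM2G569903, the leading Mo17-only model, had 0 and 4562 counts at 3 DAP, 15 and 3980 at 5 DAP, and 360 and 639 at 7 DAP. The count of the lower cross was at most 18 in kernels and at least 360 in endosperm of 7 DAP.

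Benzoxazinoids are defence compounds of grasses, built from indole and released from storage glucosides when tissue is damaged. The first gene of the pathway, bx1, which makes the free indole, had 46 counts with the B73 mother and 8554 with the Mo17 mother. It was 164-fold higher with the Mo17 mother (log2 ratio -7.36, 95% counting interval -7.84 to -6.97). The next gene, the cytochrome P450 bx2, had 380 and 6854 counts, 16.2-fold higher. The P450 genes after it did not share that direction in full: bx3 had 33190 and 49721 counts (log2 ratio -0.44), bx4 39292 and 20105 (1.11), and bx5 90874 and 44344 (1.18).

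The glucosyltransferase genes that store the products were under 2-fold apart. For bx8 the counts were 9721 and 6522, and for bx9 4773 and 5090. The indole lyase gene igl1, which makes volatile indole, had 5324 and 2851 counts. The beta-glucosidase genes that release the products were higher with the B73 mother, glu1 with 35875 and 18568 counts and glu2 with 834 and 193 (4.77-fold). Over 10 tested members 1 was 4-fold higher with the B73 mother and 2 with the Mo17 mother, or 10% and 20%, against 10.1% and 11.0% of all models tested, and the median was 0.89. In kernels of 3 DAP bx1 had 117 and 15542 counts (BxM and MxB), at 5 DAP 86 and 4561, and in endosperm it was nearly unexpressed, with 0 and 58 counts at 7 DAP.

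**Figure D3:**
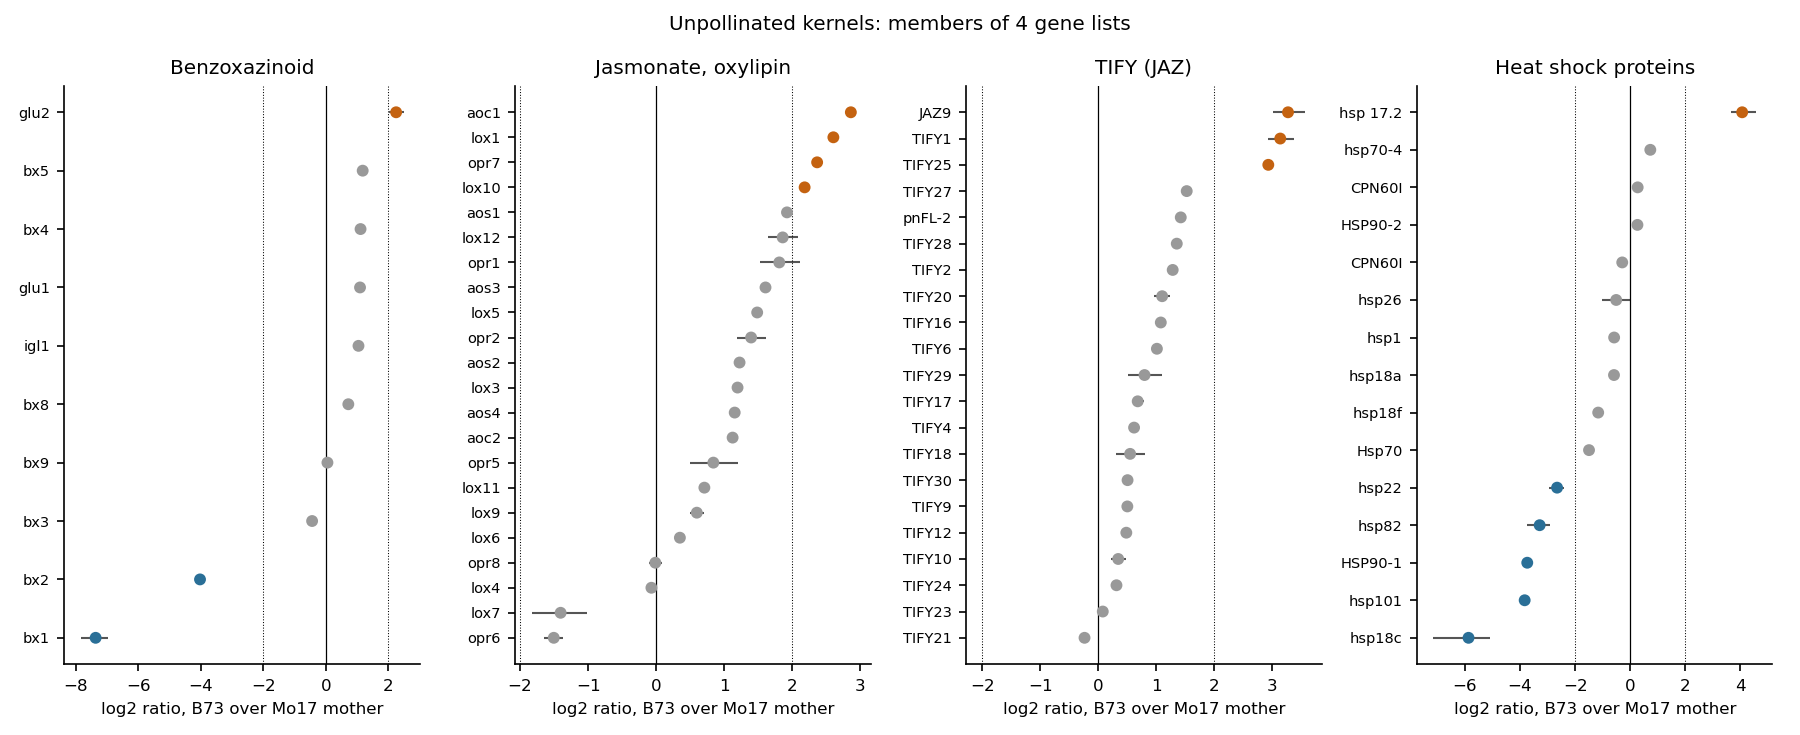
Log2 ratio (B73 over Mo17 mother) of each tested member of 4 gene lists in unpollinated kernels, with 95% intervals for counting error (many are narrower than the point); dotted lines mark 4-fold and coloured points lie beyond it. The genes bx1 and bx2 stand far to the left of the other benzoxazinoid genes, 18 of 22 jasmonate genes and 20 of 21 TIFY genes (19 by library totals) lie right of 0, and 5 heat shock genes are past 4-fold on the Mo17 side.

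Genes for jasmonate and related oxylipins, signals of wounding and defence made from fatty acids, were mostly higher with the B73 mother. The lipoxygenase gene lox1 had 107938 counts with the B73 mother and 19652 with the Mo17 mother (6.08-fold), and lox10, whose product feeds green leaf volatiles, had 98512 and 24040 (4.54-fold). The allene oxide synthase gene aos1 had 78571 and 22947 counts, just under 4-fold at a log2 ratio of 1.92. The allene oxide cyclase gene aoc1 had 21493 and 3274 counts (7.27-fold), and the jasmonate reductase gene opr7 had 11180 and 2401 (5.16-fold).

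In this list, chosen after values were seen, 18 of 22 tested members were higher with the B73 mother. Of them 4 were higher by at least 4-fold (18.2%, against 10.1% of all models tested). With the Mo17 mother 0 were 4-fold higher (against 11.0%). Among named models with at least 200 counts in either library these shares were 4.62% and 1.93%. The median log2 ratio was 1.21, against -0.02 over all models. The exceptions included opr6, with 511 and 1608 counts, and lox7, with 69 and 204. The median of the list was 0.27 in kernels of 3 DAP and 0.84 in kernels of 5 DAP. At 3 DAP lox1 was near equal after scaling (57375 counts in BxM and 82364 in MxB, log2 ratio -0.16), whereas aoc1 had 26954 and 7207.

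TIFY (JAZ) genes encode repressors of the jasmonate response that are themselves switched on by it. Of 21 members 20 were higher with the B73 mother (19 when scaled by library totals), with a median log2 ratio of 0.80. By at least 4-fold 3 were higher, or 14.3%. That share was 10.1% of all models tested and 4.62% of named models with at least 200 counts in either library. TIFY25 had 23378 and 3397 counts (7.62-fold), JAZ9 1027 and 117 (9.65-fold) and TIFY1 1539 and 193 (8.79-fold). The median was 1.11 in kernels of 3 DAP and 0.00 in kernels of 5 DAP. This list too was chosen after values were seen.

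Genes of ethylene synthesis differed unequally. The ACC synthase gene acs7, for the enzyme that makes the precursor of ethylene, had 11860 counts with the B73 mother and 919 with the Mo17 mother (14.3-fold). The ACC oxidase gene aco31, for the last step, had 1184 and 325 (4.03-fold), whereas acs6 had 248 and 263. The difference in acs7 shrank with age: 8620 and 1888 counts at 3 DAP, 7427 and 2309 at 5 DAP, and 227 and 193 in endosperm of 7 DAP. Over the 17 tested hormone genes, which include some of the jasmonate genes above, 4 were 4-fold higher with the B73 mother (23.5%, against 10.1% of all models) and 0 with the Mo17 mother. Among the others d8 and d9, the DELLA repressors of gibberellin signalling, were near equal (10880 and 10146, 7961 and 7400 counts), and vp14, for the first committed step to abscisic acid, had 3770 and 5922.

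Terpene synthase genes were few but mostly higher with the B73 mother, 4 of 5 tested by at least 4-fold (80.0%, against 10.1% of all models tested). The gene tps10, for a sesquiterpene synthase of herbivore-induced volatiles, had 436 and 7 counts (60.1-fold), and tps1 had 1616 and 88 (20.1-fold). An exception was an1, a gibberellin pathway gene, with 216 and 500. The whole list summed to 2361 and 609 counts, so its remaining members had few. Of the 25 names planned for this list 19 were not matched. Glutathione transferase genes, whose products detoxify reactive compounds, are a list chosen after values were seen. Of 29 tested members 25 were higher with the B73 mother (23 by library totals). By at least 4-fold 8 were higher (27.6%, against 10.1% of all models) and 0 the other way (against 11.0%). Among named models with at least 200 counts in either library these shares were 4.62% and 1.93%. Examples are gst28 with 5030 and 968 counts, GST25 with 2893 and 509, and gst19 with 160 and 8. Gst1 went the other way, with 23113 and 34235.

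**Figure D4:**
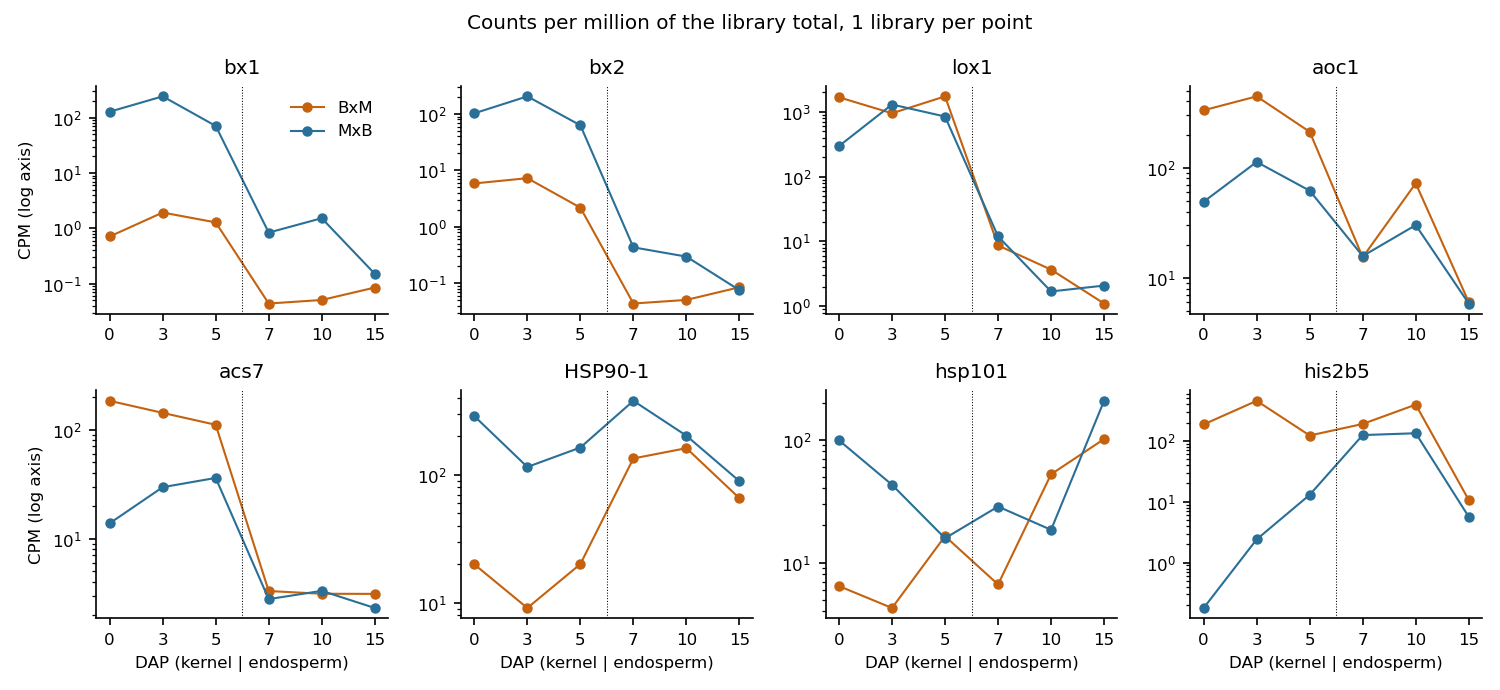
CPM by library total (log axis) of 8 genes in BxM and MxB at 6 ages, with 1 library per point; the dotted line separates kernels from endosperm, and counts under 3 are drawn at 3. The gap in bx1 and bx2 persists through 5 DAP, the gap in acs7 is under 2-fold in endosperm, and that in his2b5 is narrower from 5 DAP on than before.

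Several heat shock genes differed in the reverse direction, although the summed level of their list was higher with the B73 mother. The disaggregase gene hsp101 had 416 counts with the B73 mother and 6565 with the Mo17 mother (14.2-fold), and the chaperone gene HSP90-1 had 1296 and 19139 (13.3-fold). Small heat shock genes were likewise higher, hsp18c with 9 and 642 counts (58.3-fold) and hsp22 with 125 and 877 (6.29-fold). The cytosolic HSP90 gene hsp82 had 52 and 571 counts (9.75-fold).

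Of 15 tested heat shock protein genes (a list chosen after values were seen, which overlaps the stress list), 5 were at least 4-fold higher with the Mo17 mother (33.3%, against 11.0% of all models tested), 1 with the B73 mother, and the median was -0.59. The exception, GRMZM2G158232, a small heat shock gene by its name, had 663 and 43 counts. Constitutive forms were under 2-fold apart: hsp70-4 had 186104 and 124424 counts (log2 ratio 0.73), and HSP90-2 had 38008 and 35117. The summed level of the list was 3842 CPM (B73) against 3164 CPM (Mo17). Of these sums hsp70-4 alone held 2984 CPM and 1801 CPM, and without it the sum was higher with the Mo17 mother. The heat shock factor gene Hsf26 had 7 and 380 counts (43.3-fold), while the median of 10 heat shock factor genes was -0.15. Near-identical copies of heat shock genes can share reads, so single values are uncertain. At 3 DAP the median of the heat shock list was -1.28, and hsp101 had 259 and 2736 counts. At 5 DAP the list median was -0.01. There hsp101 had 1100 and 1011 counts, nearly equal, and HSP90-1 still 1353 and 10492.

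Other stress genes differed less. The dehydrin gene dhn1 had 2547 and 7069 counts, adh2, an alcohol dehydrogenase of low oxygen, had 3542 and 7604, and sod4, a superoxide dismutase gene, had 3912 and 9801. Adh1 had 19880 and 15450. Of 21 stress and hypoxia genes, 4 were 4-fold higher with the Mo17 mother (19.0%, against 11.0% of all models), all of them heat shock genes. With the B73 mother 0 were 4-fold higher. The summed level of the list was 5010 CPM (B73) against 4329 CPM (Mo17). It includes hsp70-4 with 2984 CPM and 1801 CPM, and without that gene the sum was higher with the Mo17 mother.

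Most of the sucrose and starch genes that load the seed were under 2-fold apart before pollination: of 11 tested sucrose genes 3 were at least 2-fold higher with the B73 mother and 1 with the Mo17 mother, and of 13 starch synthesis genes 2 and 0. The 2-fold shares of all tested models were 18.1% and 17.5%. The sucrose synthase genes sh1 (15785 and 16780 counts) and sus1 (34782 and 27285) and the vacuolar invertase gene ivr2 (11859 and 14942) were under 2-fold apart. The member past 4-fold was sus2, a further sucrose synthase gene, with 6639 and 1244 counts (5.91-fold higher with the B73 mother). The cell wall invertase gene mn1 had 885 and 2567 counts, and its relative incw1 had 1035 and 367. Of the 13 starch synthesis genes 0 passed 4-fold, and the median was -0.22. Both genes past 2-fold were higher with the B73 mother, the starch synthase genes du1 with 6703 and 2666 counts and wx1 with 171 and 57.

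Flavonoid pigment genes were mostly higher with the B73 mother: 6 of 7 tested by at least 2-fold, against 18.1% of all models tested, and 1 was at least 2-fold higher with the Mo17 mother, against 17.5%. The chalcone synthase gene c2 had 315 and 113 counts, the chalcone isomerase gene chi1 3996 and 2070, and the anthocyanin transport gene bz2 211 and 51 (4.51-fold). The MYB regulator gene p1 went the other way, with 1 and 44 counts (log2 ratio -4.38, 95% counting interval -10.65 to -2.76).

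Among single genes outside the pathways, his2b5, a histone H2B gene, had the largest ratio of named genes with the B73 mother, 12078 counts against 12 (log2 ratio 10.00, 95% counting interval 9.32 to 11.08). Of the same histone, his2b2 had 12512 and 14825 counts. At 3 DAP his2b5 had 27653 counts in BxM and 154 in MxB, at 5 DAP 8246 and 836, and in endosperm of 7 DAP 13060 and 8652. Core histone genes have near-identical copies, and a read may be counted for one copy or another. NAC76, a NAC transcription factor gene, had 638 and 4 counts (140-fold), and it was nearly silent in every later library, with at most 10 counts. The NAC list was chosen after values were seen. Of 21 tested NAC genes, 6 were at least 4-fold higher with the B73 mother (28.6%, against 10.1% of all models tested). With the Mo17 mother 1 was (4.76%, against 11.0%). Among named models with at least 200 counts in either library these shares were 4.62% and 1.93%. NAC131 had 341 and 61 counts, NAC20 3106 and 520, and NAC22 5 and 124. The asparagine synthetase gene asn2 had 334 and 9 counts, the auxin-binding protein gene abp4 1775 and 117, and the TAZ-domain gene TAZ3 1045 and 56.

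On the Mo17 side, ZCN4, a gene of the CENTRORADIALIS-like family of flowering regulators, had 16 and 416 counts (22.2-fold). PYL11, of the abscisic acid receptor family, had 24 and 326, the potassium transporter gene HAK13 35 and 469, the beta-expansin gene expB4 16 and 279, and the ERF-type factor gene EREB20 15 and 201. All 5 were low in the B73 library but above the limit of 3 counts. These genes were named by rank of their ratio, so their ratios are the ends of a distribution.

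Markers of other tissues differed between the libraries in both directions. Of the 11 tested endosperm markers 5 were higher with the B73 mother and 6 with the Mo17 mother. Past 4-fold were 3 each way (27.3% each, against 10.1% and 11.0% of all models tested). Those past 4-fold with the B73 mother were zein genes, which encode storage proteins: gz16 had 480 and 34 counts, gz50 90 and 2 (log2 ratio 5.05, 95% counting interval 3.74 to 8.71), and fl2 167 and 2 (5.93, 4.66 to 9.59). The alpha-zein gene z1A1_6, named by the rank of its ratio, had 664 and 28 counts, and the zein gene gz27 had 782 and 1215. Zein copies share reads. The counts of fl2 were a trace beside its 992970 and 503944 counts (BxM and MxB) in endosperm of 15 DAP. Those of z1A1_6 were small beside 55170 and 40022 in endosperm of 10 DAP. Among the markers higher with the Mo17 mother were the transfer-cell genes betl1, with 0 and 41 counts (at least 12.3-fold), and betl2, with 6 and 178. Leaf markers had 2 of 12 tested past 4-fold with the B73 mother (16.7%, against 10.1%), the C4 photosynthesis genes ppdk1 (688 and 95 counts) and pepc1 (78 and 3), and a summed level of 116 CPM against 109.

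**Figure D5:**
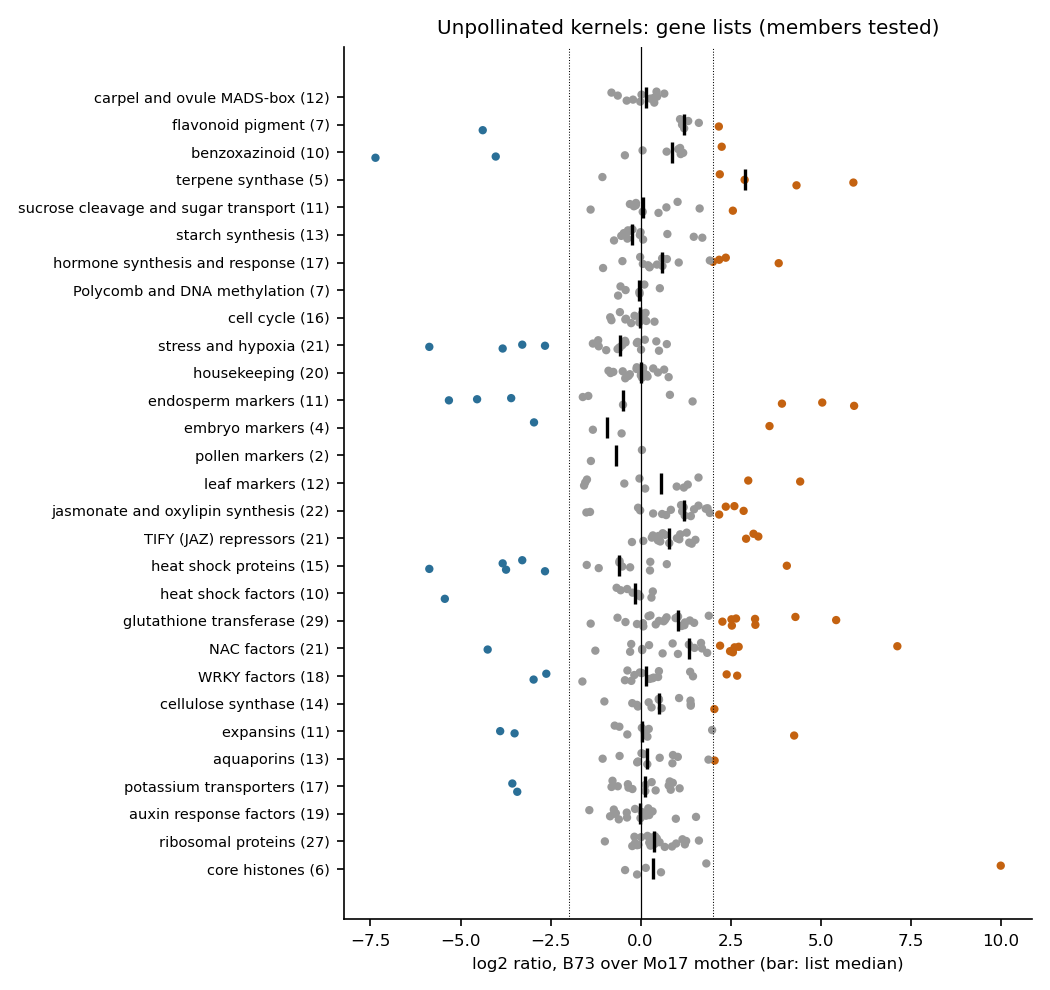
Log2 ratio (B73 over Mo17 mother) of the tested members of 29 gene lists (number tested in brackets); each point is 1 gene, black bars are list medians, and dotted lines mark 4-fold. Lists from jasmonate downward were chosen after values were seen. MADS-box, cell cycle, housekeeping and ribosomal genes have no member past 4-fold, and the glutathione transferase and NAC lists are shifted toward the B73 mother.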

How the data were processed

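Counts of reads per gene model were deposited by the authors, 1 column per cross and age, in 12 libraries. Per the submitters' processing notes Bowtie and bedtools were used, with no versions; build and annotation were not given in the sources used here, and normalised tables deposited beside the counts were left aside. The 2 libraries of 0 DAP were compared as log2 ratios of CPM, with TMM factors from edgeR 4.0.16 (R 4.3.3) and 1 count added in proportion to library size. Models reaching 20 counts over both libraries were compared, at least 4-fold being called. Exact 95% intervals cover counting error only, and 0 counts allow up to 3 (0.0464 CPM with the B73 mother, 0.0450 with the Mo17 mother). The calculation was tested on simulated data. Overlapping or near-identical models can share reads.

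Names came from a RefSeq table of assembly Zm-B73-REFERENCE-NAM-5.0, whose relation to the authors' build is unknown; 18731 models matched and 2540 had a usable name. Planned lists defined by product could not be filled, since the table gives no products, and lists by name prefix replaced some of them. The members and lists were chosen with earlier results of these data known. Named genes were list members, the 10 models per direction with the largest ratio and at least 1000 counts, the 15 named genes per direction with at least 200, and the 5 most abundant named genes per library. Genes of the name-prefix lists and of the strain-only class outside those rules were chosen after their values were seen. Alternatives were other scalings (including DESeq2 1.42.0 size factors), count filters, fold limits and counting identical models once.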

Additional observations from a re-analysis of the deposited data

Results flagged for a closer look

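For 11 named genes or list members the order of the crosses in kernels of 3 or 5 DAP was the opposite of that between the mothers at 0 DAP, each time by at least 4-fold. The number of genes searched is not given, so the 11 are no share. Of all followed models at 5 DAP, 3 of 765 B73-only models were at least 4-fold higher in MxB. So were 62 of 2757 other models 4-fold higher with the B73 mother at 0 DAP. In the reverse direction turned 1 of 1003 Mo17-only models and 15 of 2532 other models 4-fold higher with the Mo17 mother. These differences between ages were not tested, since each cross and age has 1 library. Asn2, for asparagine synthetase, had a log2 ratio of 5.21 at 0 DAP and -4.97 at 3 DAP, with 8 counts in BxM and 355 in MxB. Zein genes turned at 5 DAP: z1A1_6 had -6.34 (15 and 1183 counts), z1A1_5 -6.48 (11 and 978), z1A1_7 -5.83 (11 and 623), z1A2_1 -6.49 (4 and 413), gz16 -3.59 (22 and 252), gz50 -5.94 (2 and 170) and z1C1_7 -5.04 (4 and 150). Endosperm ages, where the tissue also changed, were not searched. The alpha-zein gene fl2 had -7.17, with 0 and 136 counts. These kernel counts were a trace beside its 992970 and 503944 counts in endosperm of 15 DAP. These zein genes were all higher with the B73 mother at 0 DAP, and near-identical zein copies share reads. ZCN4 had -4.47 at 0 DAP and 4.19 at 5 DAP (78 and 3 counts). The aquaporin gene pip2c had 2.06 at 0 DAP (555 and 147 counts) and -2.25 at 5 DAP (276 and 1202).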

How the results depend on the processing

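The number of 4-fold models depended on the count filter and on the fold. With no filter 6657 models were 4-fold higher with the B73 mother and 7625 with the Mo17 mother, with a summed count of at least 100 there were 2486 and 2282, and at 2-fold there were 7561 and 7294. The strain-only counts were 1211 (B73-only) and 1671 (Mo17-only) when at least 50 counts were asked for in the higher library, and 218 and 211 with at least 500. At 100 counts and at 2-fold the B73 side was thus the larger one, and at 20 counts and 4-fold the smaller. Scaling by library totals gave 4002 and 4737 models and DESeq2 size factors 4188 and 4604; library totals moved the median of all tested models from -0.02 to -0.12. Under library totals and DESeq2 size factors none of the called genes among the 435 checked changed direction, and 27 values changed sign, all from genes within 0.11 of 0. Each of 29 list medians was recomputed under 3 settings, and 7 of these 87 values changed sign. Library totals turned those of sucrose genes (0.06 to -0.05), housekeeping genes (0.01 to -0.09) and expansins (0.04 to -0.07). With a summed count of at least 100 the median turned for endosperm markers (-0.49 to 0.81), leaf markers (0.57 to -0.03), expansins (0.04 to -0.17) and auxin response factors (-0.00 to 0.02). No paired analysis was possible because each mother has 1 library. The limits are 1 library per mother, no spread between plants, mapping to B73 and shared reads among copies.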

Other observations

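Several further families were all listed after values were seen. The WRKY and auxin response factor lists were close to balanced between the mothers. Of 18 tested WRKY factor genes, a family of defence regulators, 2 were at least 4-fold higher with the B73 mother and 2 with the Mo17 mother (11.1% each, against 10.1% and 11.0% of all models tested), with a median log2 ratio of 0.15. WRKY95 had 397 counts with the B73 mother and 83 with the Mo17 mother, and the gene listed only as WRKY had 208 and 1813. Auxin response factor genes had 0 of 19 past 4-fold and a median of -0.00, although ARF18 had 37827 and 14411 counts and ARF12 had 1852 and 5503.

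Expansin, potassium transporter and aquaporin genes held single large differences within lists whose medians were 0.04, 0.13 and 0.19. Of 11 tested expansin genes, whose products loosen cell walls, 1 was 4-fold higher with the B73 mother and 2 with the Mo17 mother. These are 9.09% and 18.2%, against 10.1% and 11.0% of all models tested. For named models with at least 200 counts in either library the shares were 4.62% and 1.93%, here and for the lists below. The expansin gene expA3 had 253 and 3179 counts (11.3-fold). Among 17 tested HAK potassium transporter genes 2 were 4-fold higher with the Mo17 mother (11.8%, against 11.0% of all models tested). They were HAK11, with 41 and 498 counts, and HAK13. With the B73 mother 0 were 4-fold higher (against 10.1%). Of 13 tested aquaporin genes, for water channels, 1 was past 4-fold with the B73 mother (7.69%, against 10.1% of all models tested). The gene pip2b had 12868 and 3857 counts (3.70-fold). The 14 cellulose synthase genes had a median of 0.51, and 10 were higher with the B73 mother. At least 2-fold higher were 5 with the B73 mother and 1 with the Mo17 mother. The 2-fold shares of all models tested were 18.1% and 17.5%. CesA13, with 272 and 72 counts, was the member past 4-fold (7.14%, against 10.1% of all models tested).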
